A study of Mus musculus and Homo sapiens with 11 samples.

Results

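The genes described here encode the intracellular adaptors that sit on the tails of integrins: the parvins Parva, Parvb and Parvg, integrin-linked kinase (Ilk), the PINCH proteins Lims1 and Lims2, the kindlins Fermt1, Fermt2 and Fermt3, and talin 1 (Tln1). They were chosen by symbol from a table of 24062 mouse genes, and all 10 were found in it. The choice was made with the contrast between the cell groups in view, because Parvb was already known to be far higher in the metastatic derivative. The levels and fold changes of the 10 genes are therefore descriptions and carry no test. The cells were cultures of MMTV-ErbB2, a mouse breast cancer line named for an ErbB2 oncogene under the mouse mammary tumour virus promoter, which is active mainly in mammary epithelium. Polyadenylated RNA was sequenced from 3 libraries of its brain metastatic derivative, BrM 2a, and 3 libraries of the parental line. Both groups carry the same oncogene, no treatment is given for either, and the derivative is represented by this one line. The series holds 11 libraries, and the 5 of the human HCC1954 line were not analysed here.

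Integrins are membrane receptors for the extracellular matrix that need partners inside the cell in order to bind and to signal. Talin and kindlins bind the cytoplasmic tails of the beta subunits and bring the receptor into its active state, while ILK, PINCH and parvin form a ternary complex, with ILK at its centre, that ties the receptor to actin. In mammals alpha-parvin, PINCH1 and kindlin-2 are made in most tissues, kindlin-1 is typical of epithelia, and gamma-parvin and kindlin-3 are typical of blood cells. Beta-parvin competes with alpha-parvin for the same site on ILK, so that a given complex holds one parvin or the other.

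The libraries held 29877087, 38512988 and 39106969 reads assigned to genes in BrM cells, and 39304974, 46683735 and 40140819 in parental cells. BrM replicate 1 stood apart: 3614 genes differed at least 2-fold between BrM replicates 1 and 2, against 220 between BrM replicates 2 and 3. Whether each library had its own culture is not given, so the p-values take in only library-to-library spread, part of which may be technical. Values are scaled read counts, and levels compared between genes are per kb of merged exons. With limma on log2 of the scaled count plus 1, 3881 of 13821 tested genes passed an adjusted p of 0.05 in BrM against parental cells, which is 28.1%. That count was 6519 without BrM replicate 1, and 2191, 2312, 2505 and 2226 without BrM replicates 2 and 3 and parental replicates 1 and 2. Of all tested genes 12.2% passed as higher in BrM cells and 15.8% as lower. Fold changes are on that log2 scale, which understates the change of low genes. In bulk RNA, fewer cells of a type and less RNA per cell cannot be told apart.

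Both lines carried epithelial RNA. The summed level of 6 mammary epithelial markers was 143802 to 158241 in BrM libraries and 93655 to 107015 in parental libraries, and 3 of the 6 rose, 2 fell and Epcam did not pass. Krt8 and Krt18, the simple epithelial keratins, averaged 69809 and 43588 in BrM cells, against 28249.6 and 19135 in parental cells. Cdh1, which encodes E-cadherin, and Krt14, a basal keratin, were the 2 that fell, with 15921 and 4075 in BrM cells, against 24720 and 9206 in parental cells. Krt5, also a basal keratin, rose but was low, with 26.3 in BrM cells and 3.73 in parental cells (73 and 12 reads).

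Among the parvins Parvb, which encodes beta-parvin, was abundant in BrM cells and close to absent in parental cells. Its scaled counts were 1393, 1079 and 963 in the BrM libraries, against 3.05, 4.12 and 4.72 in the parental libraries. These rest on 1141, 1128 and 1034 reads in BrM cells and on 3, 5 and 5 reads in parental cells. Every BrM library was high, every parental library was at the level of a few reads, and BrM replicate 1 did not stand apart for this gene. Parvb averaged 1145 ± 222 in BrM cells and 3.96 ± 0.845 in parental cells (SD, n = 3 each), a ratio of 289. The fitted log2 fold change was 7.85 (SE 0.30), or 230.4-fold, and it lay between 7.70 and 7.96 when any 1 library was left out. By its absolute value Parvb ranked 89 of the 13821 genes tested.

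Parva and Parvg did not follow Parvb in size. Parva, which encodes the widely expressed alpha-parvin, had 11372, 9636 and 9699.6 in BrM libraries, against 11880.1, 14256 and 12749 in parental libraries. Parva lies at chr7:112427505-112591692, on the plus strand. Its groups did not overlap, and its mean was 1.27-fold lower in BrM cells, with a log2 fold change of -0.34 (SE 0.13). Parvg, the gene next to Parvb and encoding gamma-parvin, had 64.7, 6.7 and 16.8 in BrM libraries, against 0 in each of the 3 parental libraries. It was found in every BrM library, but 53 of its 78 reads came from BrM replicate 1. Set against a floor of 3 reads over the parental group, the BrM level of Parvg was at least 28.8-fold higher. Without BrM replicate 1 it was at least 12.8-fold higher. That floor covers counting error only, and the bound leaves out the spread between BrM libraries. The fitted fold was 20.8, and 11.7 without BrM replicate 1.

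Parvb lies on the plus strand at chr15:84232043-84315688 and Parvg on the same strand at chr15:84324026-84342978 (GRCm38, GENCODE M21). The promoter windows of the genes with the largest contrasts are printed here, from 250 bases before to 50 after the start in RefSeq on GRCm38.p6, with each CG dinucleotide in capitals. The Parvb window is chr15:84231793-84232092, on the plus strand.
Parvb: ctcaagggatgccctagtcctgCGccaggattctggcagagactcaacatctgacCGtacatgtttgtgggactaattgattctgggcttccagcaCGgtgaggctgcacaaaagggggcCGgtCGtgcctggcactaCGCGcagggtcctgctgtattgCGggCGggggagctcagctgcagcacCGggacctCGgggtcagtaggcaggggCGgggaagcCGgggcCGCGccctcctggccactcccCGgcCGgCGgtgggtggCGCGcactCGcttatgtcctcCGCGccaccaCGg
The first of 2 Parvg windows is chr15:84324470-84324769, on the plus strand.
Parvg: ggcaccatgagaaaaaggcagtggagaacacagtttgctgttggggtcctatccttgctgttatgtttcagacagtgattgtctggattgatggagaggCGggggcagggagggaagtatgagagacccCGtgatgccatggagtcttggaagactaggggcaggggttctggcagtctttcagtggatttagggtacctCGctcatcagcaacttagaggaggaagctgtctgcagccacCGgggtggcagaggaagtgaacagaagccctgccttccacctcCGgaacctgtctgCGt
The Fermt2 window, for the kindlin that was lower in BrM cells, is chr14:45530016-45530315, on the minus strand.
Fermt2: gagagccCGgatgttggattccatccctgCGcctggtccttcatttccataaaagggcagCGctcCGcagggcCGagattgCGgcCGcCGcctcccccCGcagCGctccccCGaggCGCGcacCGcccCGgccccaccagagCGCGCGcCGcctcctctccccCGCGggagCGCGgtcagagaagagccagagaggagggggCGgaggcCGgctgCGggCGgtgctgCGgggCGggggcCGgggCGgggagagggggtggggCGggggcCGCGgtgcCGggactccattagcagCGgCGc
The Fermt3 window, for the kindlin that was higher in BrM cells, is chr19:7019420-7019719, on the minus strand.
Fermt3: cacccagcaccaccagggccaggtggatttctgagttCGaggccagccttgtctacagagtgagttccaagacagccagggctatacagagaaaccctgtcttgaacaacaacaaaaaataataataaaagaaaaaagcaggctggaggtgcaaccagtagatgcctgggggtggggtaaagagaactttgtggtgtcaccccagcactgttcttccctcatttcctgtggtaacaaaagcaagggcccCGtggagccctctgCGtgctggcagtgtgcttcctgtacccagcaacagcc
The 4 windows differ in CG content: 24 CG dinucleotides in Parvb, 6 in Parvg, 37 in Fermt2 and 3 in Fermt3, against a median of 7 over the 32851 windows of RefSeq. The second Parvg window, not printed, held 11. The Parvb window had more CG than 80.0% of those windows and the Fermt2 window more than 94.4%. Among genes not printed, the Ilk windows held 29 and 37 CG and the Lims1 windows 34, 1 and 2. The sequence GGGCGG, a GC box, searched on both strands, occurred 2 times in Parvb, 2 times in the second Parvg window and 6 times in Fermt2. It also occurred 3 times in the second Ilk window, 3 times in the first Lims1 window and 1 time in Fermt1. Of all windows 35.7% held it. The Fermt2 window also held 1 CArG box, a motif found in 1.63% of all windows. GGAATG, the motif of TEAD factors, was in none of the 12 windows of the 8 genes that matched and in 14.7% of all windows. A match is a description of the letters only, and Parva and Lims2 had no entry.

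**Figure D1:**
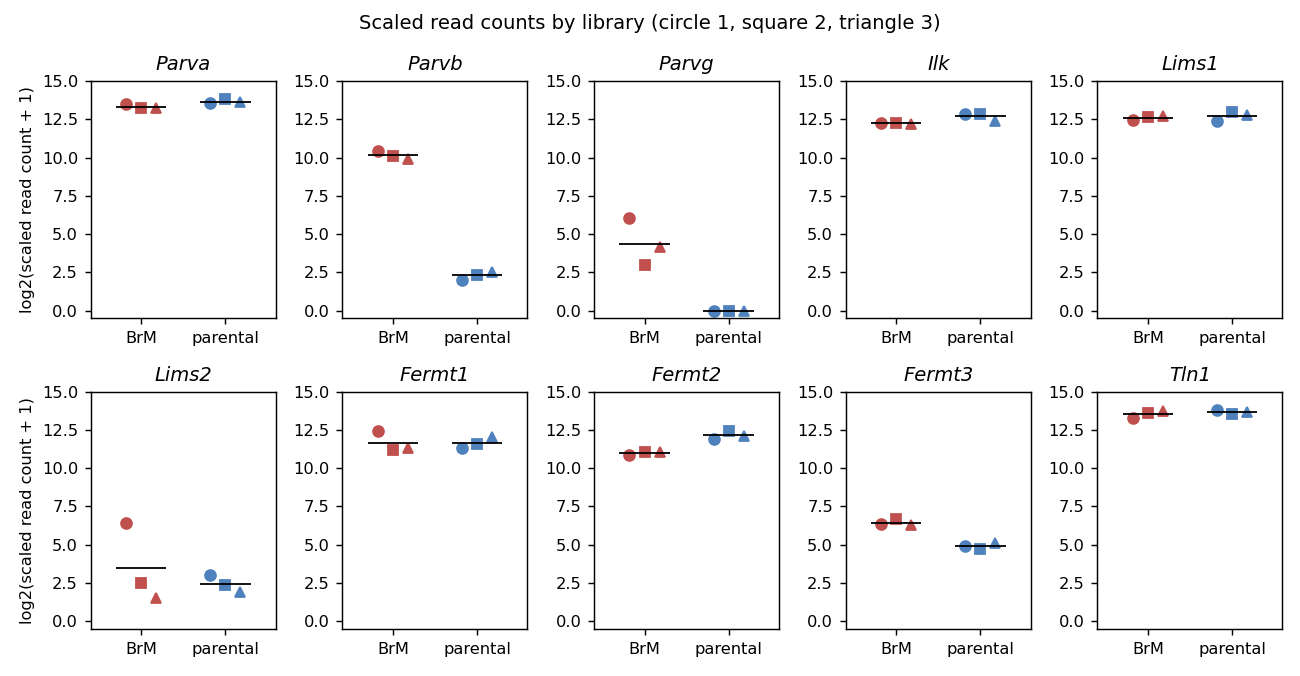
Scaled read counts of the 10 genes on a log2(value + 1) axis, with BrM libraries at the left and parental libraries at the right of each panel; each symbol is a library (circle 1, square 2, triangle 3) and each line the mean of 3. Parvb sits at 963 to 1393 in BrM libraries, against 3.05 to 4.72 in parental libraries, while Parva, Lims1 and Tln1 lie at nearly one height in both.

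Genes around Parvb showed smaller and mixed differences. Of the 5 tested genes on each side, 4 rose, 1 fell and 5 did not pass in BrM against parental cells (limma, adjusted over all genes). Parvg was left out of that count, which stands beside 12.2% higher and 15.8% lower among all tested genes. The median log2 fold change of the 10 neighbours was 0.53, against 0.24 for the tested genes of chromosome 15. Samm50, a mitochondrial outer membrane gene that starts 39.8 kb before Parvb, averaged 4623 ± 709 in BrM cells and 4102 ± 331 in parental cells (SD, n = 3 each) and did not pass, with a limma adjusted p of 0.47. Pnpla3, a lipid droplet hydrolase gene that starts 64.2 kb before Parvb, rose 4.95-fold to 111 ± 26.9 in BrM cells, against 21.2 ± 0.576 in parental cells (limma adjusted p = 0.00294). On the far side of Parvg, Prr5 and Arhgap8, which start 438 and 488 kb after Parvb, rose 1.97- and 2.09-fold (limma adjusted p = 0.0209 and 0.0259). Ttll12, 657 kb before Parvb, rose 1.48-fold (limma adjusted p = 0.0241). Scube1, 627 kb before, fell 44.5-fold to 5.37 ± 3.72 in BrM cells, against 363 ± 274 in parental cells (limma adjusted p = 0.00792). The Scube1 fold was 29.0 without parental replicate 2 and 91.1 without parental replicate 3. The calls of Prr5 and Ttll12 were lost without BrM replicate 2 or 3 or parental replicate 1 or 2, with limma adjusted p of 0.07 to 0.0815 for Prr5 and 0.0599 to 0.0913 for Ttll12. That of Arhgap8 was lost without BrM replicate 2 or any 1 parental library, with limma adjusted p of 0.0563 to 0.0885. Centring each log2 fold change on the median of its chromosome also ended these 3 calls, with limma adjusted p of 0.0634 for Prr5, 0.141 for Ttll12 and 0.07 for Arhgap8.

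**Figure D2:**
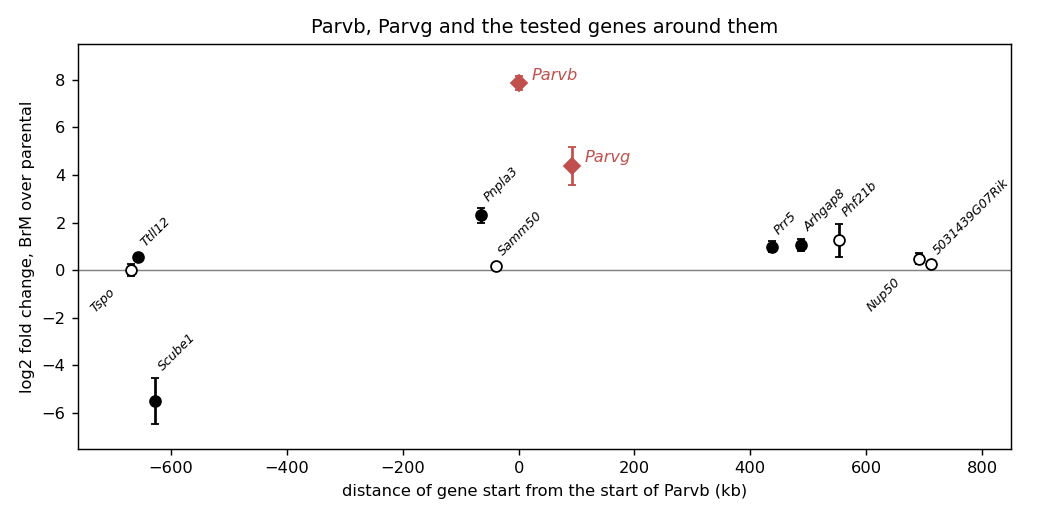
Log2 fold change, BrM over parental (± SE), of Parvb, Parvg (red diamonds) and the 10 nearest tested genes (circles, filled where the limma adjusted p is under 0.05), by the distance of their starts from that of Parvb in kb. Parvb stands at 7.85, whereas Samm50, the nearest tested gene before it, stands at 0.16.

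The same count over all 10 genes found 30 of 90 distinct neighbours past the threshold, 14 higher and 16 lower, beside 28.1% of all genes. Their median log2 fold change was -0.19. The count was 10 without BrM replicate 2, 13 without BrM replicate 3, 13, 11 and 18 without parental replicates 1, 2 and 3, and 45 without BrM replicate 1. Around Fermt2, 4 of 10 neighbours fell and none rose, with a median of -0.62. Around Parva, 3 of 10 fell and none rose, with a median of -0.66. The same held around Fermt1, with a median of -0.39, while around Lims2 and around Fermt3 3 of 10 rose and none fell.

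By profile, the 5 genes nearest to Parvb over the 6 libraries, each centred on its mean, were Cntfr, Gpa33, Mllt3, Focad and Hoxa7. Their root mean square differences from Parvb were 0.309, 0.418, 0.448, 0.453 and 0.531 on the log2 scale. None lies on chromosome 15: Cntfr, Mllt3 and Focad are on chromosome 4, Gpa33 is on chromosome 1 and Hoxa7 on chromosome 6. Cntfr, a receptor subunit for ciliary neurotrophic factor, had 413, 209 and 223 in BrM libraries, against 0, 0.824 and 0.944 in parental libraries.

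Ilk, which encodes the pseudokinase at the centre of the complex, had scaled counts of 4943, 4944 and 4761 in BrM libraries, against 7381, 7381 and 5449 in parental libraries. The groups did not overlap, and parental replicate 3 lay closest to the BrM libraries. The mean was 4882 ± 105 in BrM cells and 6737 ± 1115 in parental cells (SD, n = 3 each), 1.37-fold lower in BrM cells on the log2 scale (-0.45, SE 0.15). Merged exons of Ilk (chr7:105736592-105742925, plus strand) share 2106 bases, 76.7% of their length, with those of Taf10 on the other strand and 355 bases with those of Rrp8. Whether reads were counted by strand is not given in the sources used here, so it is not known how reads were assigned there. Taf10, a subunit of the general transcription factor TFIID, averaged 3091 ± 368 in BrM cells and 2769 ± 409 in parental cells and did not pass (limma adjusted p = 0.496).

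Lims1, which encodes PINCH1, had 5709, 6323 and 6598 in BrM libraries, against 5391, 8032 and 7189 in parental libraries. These ranges overlap, and the log2 fold change was -0.13 (SE 0.17). Lims2, which encodes PINCH2, was near the floor in every library except BrM replicate 1, with 84.2, 4.78 and 1.86 in BrM libraries, against 7.12, 4.12 and 2.83 in parental libraries. The counts behind these were 69, 5 and 2 reads in BrM cells and 7, 5 and 3 reads in parental cells. Its log2 fold change of 1.05 (SE 1.25) rests on that library, since without BrM replicate 1 it was -0.41, and it was 2.03 without BrM replicate 3. Exons of Lims2 share 188 bases with Gpr17 on the other strand. Parvg and Lims2 passed the filter on low values, a mean of 10 over the 6 libraries, through BrM replicate 1 alone: without it their means were 4.69 and 4.14.

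The kindlin genes lie apart, with Fermt1 at chr2:132904389-132945906, Fermt2 at chr14:45458795-45530118 and Fermt3 at chr19:6998958-7019469, each on the minus strand. Fermt2, which encodes kindlin-2, was lower in BrM cells, while Fermt3, which encodes kindlin-3, was higher but at a low level. Fermt2 had scaled counts of 1825, 2131 and 2168 in BrM libraries, against 3877, 5580.4 and 4364 in parental libraries. No BrM library reached any parental one, and the difference was 2.24-fold, a log2 fold change of -1.16 (SE 0.17). Without any 1 library that value lay between -1.28 and -1.01. Fermt3 had 80.6, 101 and 77.3 in BrM libraries, against 29.5, 25.5 and 34.0 in parental libraries. Its groups did not overlap either, and it was 2.85-fold higher in BrM cells (log2 1.51, SE 0.30).

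Fermt1, which encodes the epithelial kindlin-1, had 5585, 2371 and 2567 in BrM libraries, against 2604, 3099 and 4299 in parental libraries. BrM replicate 1 was 2.26 times the mean of the other BrM libraries, and those lay below every parental library. The log2 fold change was -0.01 (SE 0.37) over all libraries and -0.40 without BrM replicate 1. Tln1, which encodes the talin of most cells, had 9988, 12552 and 13411 in BrM libraries, against 14283, 11963 and 12914 in parental libraries. These ranges overlap, and the log2 fold change was -0.13 (SE 0.16). Exons of Fermt3 share 89 bases with Trpt1 and those of Tln1 share 360 bases with Creb3, each on the other strand. Neither partner passed the test, with limma adjusted p of 0.96 for Trpt1 and 0.466 for Creb3.

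Since Parvg and Fermt3 are genes of blood cells, and Fermt2 is high in fibroblasts, markers of these cells were read beside them. Of 12 blood cell markers 4 were tested, and 1 rose and none fell: Csf1r, the receptor for colony stimulating factor 1, averaged 268 ± 45.7 in BrM cells and 7.52 ± 9.84 in parental cells (limma adjusted p = 0.0037). The other tested ones, Cd68, Vav1 and Lyz2, did not pass. Cd68 had 2633 reads in BrM cells and 1058 in parental cells, Vav1 had 138 and 144, and Lyz2 had 2 and 362. The summed level of the 12 markers was 483 to 3115 in BrM libraries and 262 to 1051 in parental libraries. The value of 3115 was that of BrM replicate 1, which also held most of the Parvg reads. The other BrM libraries lay below parental replicate 1, which had 1051. Most of the 3115 was Cd68 alone, which averaged 1030.2 ± 1419.8 in BrM cells, and its relation to the Parvg reads was not tested. The defining leukocyte marker Ptprc had 11 reads in BrM cells and 3 in parental cells in all, Tyrobp had 1 and 1, and Cd52 was at 0 in every library. Of 10 fibroblast and pericyte markers 6 were tested, and 4 fell and none rose. Their summed level was 224 to 1112 in BrM libraries and 4647 to 16105 in parental libraries. Pdgfrb, the platelet-derived growth factor receptor of pericytes and fibroblasts, averaged 1.56 ± 1.93 in BrM cells and 2483 ± 1362 in parental cells (limma adjusted p = 0.000329), whereas Lum was at 0 in every library. Postn and Pdgfrb made up most of the summed level in each parental library. Col1a1 and Pdgfra did not pass (limma adjusted p = 0.522 and 0.332), and Thy1 and Fap had 3 and 8 reads in parental cells. The part of the fibroblast markers in the lower Fermt2 level was not tested. No endothelial marker of 6 reached the filter, with summed levels of 3.73 to 25.6 in BrM libraries and 9.44 to 20.6 in parental libraries. Of 8 brain cell markers 3 were tested, and Gfap and Mbp rose and Slc1a2 fell, with summed levels of 2188 to 2334 in BrM libraries and 1960.2 to 2731 in parental libraries. Aqp4 and Mog, markers of astrocytes and oligodendrocytes, had no read in BrM cells.

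Of the 10 genes, 4 had an adjusted p under 0.05 in BrM against parental cells, Parvb, Parvg and Fermt3 higher and Fermt2 lower. These counts are a description and no test, since the genes were chosen on the contrast, and they stand beside 28.1% of all tested genes. Parvb and Parvg also reached the filter on low values only through BrM libraries, with parental means of 3.96 and 0. Fermt3 was above the threshold without BrM replicate 2, while Parva was under it without BrM replicate 1 and Ilk without parental replicate 3. In 6 of the 10 the 2 groups of libraries did not overlap, 3 higher and 3 lower in BrM cells, beside 48.0% of all tested genes, 22.3% higher and 25.7% lower. Parva, Ilk and Fermt2 were the 3 lower ones, and Lims1, Lims2, Fermt1 and Tln1 overlapped. The median log2 fold change was -0.07 over the 10 genes, also with Parvg at its bound, and -0.05 over all tested genes. The tested genes of chromosome 7, which carries Parva and Ilk, had a median log2 fold change of -0.33. Centred on that median, Parva stood at -0.008 and Ilk at -0.12. Fermt2 stood at -0.78 after the median of chromosome 14, -0.38, was taken off.

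**Figure D3:**
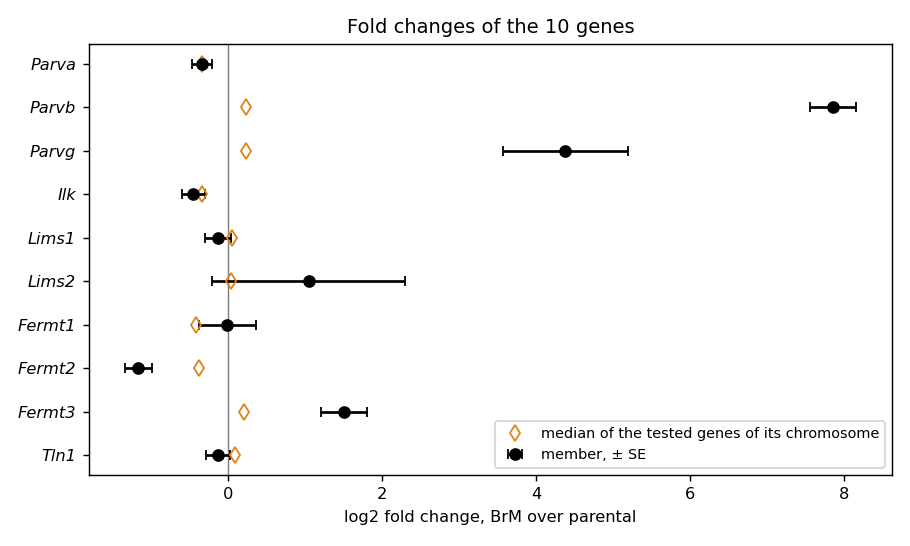
Log2 fold change, BrM over parental, of each of the 10 genes (black points, ± SE, n = 3 libraries a group), with the median of all tested genes of its chromosome (open orange diamonds). Parvb stands at 7.85 and Fermt2 at -1.16, while Parva and Ilk lie near the median of chromosome 7, -0.33.

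Per kb, Ilk was the highest of the 10 in both groups, with 1779 ± 38.4 in BrM cells and 2455 ± 406 in parental cells (SD, n = 3 each). How reads in the bases it shares with Taf10 were counted is not known, and this bears on any level relative to Ilk. In BrM cells Lims1, Tln1, Parva, Fermt1 and Fermt2 followed, with 1269.7, 1223, 1008, 615 and 393 per kb, and each overlapped its neighbour in that order. Parvb came next with 259 ± 50.4, below every BrM library of Fermt2 and above every one of Fermt3, which had 14.9 ± 2.26. Lims2 and Parvg closed the order at 9.9 and 9.51 per kb, and their libraries overlapped each other and Fermt3. In parental cells Lims1, Tln1 and Parva, at 1405, 1332 and 1276 per kb, overlapped, and so did Fermt2 and Fermt1, at 888 and 585. Fermt3 followed at 5.13 per kb, Lims2 at 1.53 and Parvb at 0.898, of which the last 2 overlapped, and Parvg was at 0. Parvb stood above Fermt3 and Lims2 in BrM cells and below Fermt3 in parental cells. Fermt1 and Fermt2 exchanged places, clearly only in BrM replicate 1. They were nearly equal in BrM replicate 2, at 416 and 411 per kb, and in BrM replicate 3, at 450.4 and 418. Their ranges overlapped within each group, but Fermt1 was the higher in every BrM library and Fermt2 in every parental library.

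Beta-parvin RNA was a similar part of the parvin RNA in each BrM library and next to none of it in parental libraries. Parvb held 21.7, 20.4 and 18.5% of the parvin level per kb in BrM libraries, a mean of 20.2 ± 1.59%, against 0.0591, 0.0664 and 0.0851% in parental libraries, a mean of 0.0702 ± 0.0134% (SD, n = 3 each). Parva held the rest but for Parvg, with 79.1 ± 2.08% in BrM cells and 99.9 ± 0.0134% in parental cells. The summed parvin level per kb was 1277 ± 156 in BrM cells and 1277 ± 118 in parental cells. As scaled counts, not corrected for length, the sum was 11409.9 ± 1229 in BrM cells and 12966 ± 1203 in parental cells. Without correction for length Parvb held 9.98% in BrM cells and 0.0305% in parental cells. Relative to Ilk per kb, the parvin sum was 0.808, 0.663 and 0.679 in BrM libraries, against 0.435, 0.522 and 0.633 in parental libraries. These do not overlap, but 0.663 and 0.633 lie close, and without correction for length the groups overlapped in this ratio. The PINCH sum relative to Ilk per kb was 0.72 ± 0.0573 in BrM cells and 0.587 ± 0.166 in parental cells, and the libraries overlapped.

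Among kindlins Fermt1 held 72.8, 49.3 and 51.1% per kb in BrM libraries, against 37.8, 33.5 and 47.1% in parental libraries. Fermt2 held 26.1, 48.6 and 47.4% in BrM libraries, against 61.8, 66.2 and 52.5% in parental libraries. Each BrM library therefore lay on the Fermt1 side of each parental library, and BrM replicate 1 lay farthest out. The ratio of Fermt1 to Fermt2 per kb was 2.79, 1.01 and 1.08 in BrM libraries, against 0.612, 0.506 and 0.897 in parental libraries. Fermt3 held 1.54 ± 0.521% of the kindlin level in BrM cells and 0.354 ± 0.0759% in parental cells. The summed kindlin level per kb was 1345, 844 and 881 in BrM libraries and 1209, 1623 and 1601 in parental libraries, which overlap through BrM replicate 1. Lims1 held 99.2 ± 1.28% of the PINCH level in BrM cells and 99.9 ± 0.0804% in parental cells.

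**Figure D4:**
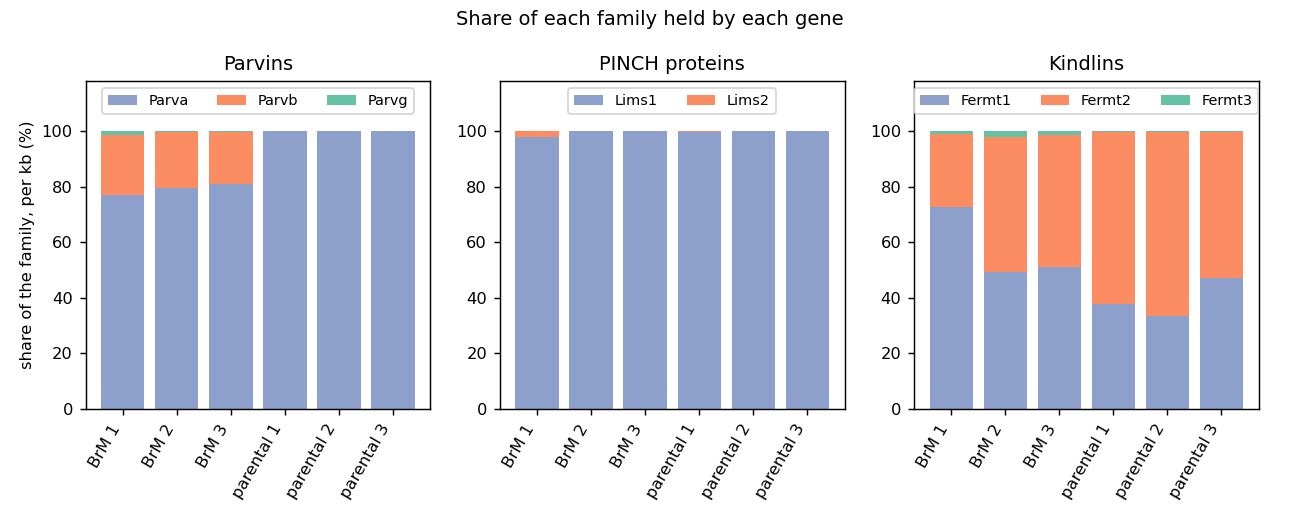
Share of each family's level per kb, in percent, held by each gene in each library, with the 3 BrM libraries at the left and the 3 parental libraries at the right. Parvb holds 18.5 to 21.7% of the parvin level in BrM libraries, against at most 0.0851% in parental libraries, and Fermt2 holds a smaller share of the kindlin level in every BrM library than in any parental one.

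Of 12 tested genes that bring talin or kindlins to integrins or hold them off, 2 rose, 3 fell and 7 did not pass in BrM against parental cells, with a median log2 fold change of -0.17. Apbb1ip, which encodes RIAM, the Rap1 effector that carries talin to the membrane, rose 3.53-fold to 531 ± 27.9 in BrM cells, against 152 ± 32.7 in parental cells (SD, n = 3 each; limma adjusted p = 0.00247). Kank2 and Kank1, which encode talin-binding proteins of the adhesion rim, fell 1.98- and 1.97-fold (limma adjusted p = 0.00344 and 0.00445). Kank2 averaged 1682 ± 52.8 in BrM cells and 3344 ± 436 in parental cells. Rasip1, a Rap1 effector best known from vessels, fell 7.68-fold (limma adjusted p = 0.0159), with 5.64 ± 5.71 in BrM cells and 39.5 ± 3.68 in parental cells. That fold was 12.2 without BrM replicate 1, and its call was lost without BrM replicate 2 or 3 or parental replicate 1 or 2, with limma adjusted p of 0.0529 to 0.0608. The count of 5 fell to 3 without BrM replicate 2, BrM replicate 3 or parental replicate 2.

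Of 14 tested binding partners of ILK, PINCH and parvins 4 rose, 4 fell and 6 did not pass, with a median log2 fold change of -0.31. The partners of parvins that act on Rac1 and Cdc42 moved in both directions. Arhgef6, which encodes alpha-PIX, an exchange factor bound by beta-parvin, fell 14.6-fold to 54.1 ± 35.6 in BrM cells, against 735 ± 239.8 in parental cells (SD, n = 3 each; limma adjusted p = 0.00256). Arhgap31, which encodes CdGAP, a Rac1 and Cdc42 GTPase-activating protein bound by alpha-parvin, fell 6.2-fold to 227 ± 55.5 in BrM cells, against 1391 ± 163 in parental cells (limma adjusted p = 0.000753). Arhgef7, which encodes the paralog beta-PIX, rose 1.65-fold to 4959 ± 670.3 in BrM cells, against 2989.7 ± 276 in parental cells (limma adjusted p = 0.0134). Pxn, which encodes the parvin-binding scaffold paxillin, rose 1.61-fold to 11004 ± 1739.6 in BrM cells, against 6812 ± 653 in parental cells (limma adjusted p = 0.0202). The call of Arhgef7 was lost without parental replicate 2 (limma adjusted p = 0.0577), and that of Pxn without BrM replicate 3 or parental replicate 2 or 3 (0.061 to 0.067) and with chromosome centring (0.0922). Rsu1, the partner of PINCH1 in the same complex, was named after its value was seen and fell 1.82-fold (limma adjusted p = 0.0298). The count of 8 was 4 without BrM replicate 2, 3 without BrM replicate 3, 4, 2 and 4 without parental replicates 1, 2 and 3, and 3 with chromosome centring.

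Of 24 tested adaptors and actin linkers of focal adhesions 4 rose, 4 fell and 16 did not pass, with a median log2 fold change of -0.05. Evl, an Ena/VASP protein that promotes actin filament growth, rose 32.4-fold to 1468 ± 307 in BrM cells, against 45.6 ± 15.8 in parental cells (SD, n = 3 each; limma adjusted p = 0.000231). Flnc, which encodes the muscle-type filamin C, fell 151-fold to 4.34 ± 2.77 in BrM cells, against 771 ± 274 in parental cells (limma adjusted p = 0.000297). The BrM level of Flnc rests on 12 reads, and with a pseudocount of 5 the fold was 81.4. Actn1, which encodes the actin cross-linker alpha-actinin-1, rose 2.61-fold (limma adjusted p = 0.00873), and Sorbs3, which encodes vinexin, fell 2.51-fold (limma adjusted p = 0.0132). Vcl and Zyx, which encode vinculin and zyxin, did not pass, with log2 fold changes of -0.05 and -0.11. Evl and Actn1 lie on chromosome 12, whose tested genes had a median log2 fold change of 0.99. Centred on it, Evl was 16.3-fold higher and still passed, while Actn1 was 1.32-fold higher and did not (limma adjusted p = 0.31). The call of Sorbs3 was lost without parental replicate 1 or 2, with limma adjusted p of 0.0547 and 0.0559. The count of 8 was 4, 4, 4, 3 and 5 without BrM replicates 2 and 3 and parental replicates 1, 2 and 3.

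Of 27 tested kinases and signalling adaptors of focal adhesions 8 rose, none fell and 19 did not pass in the limma fit, with a median log2 fold change of -0.06. DESeq2 gave 10 higher and 4 lower, and so did limma without BrM replicate 1. The count was 4 higher and none lower without parental replicate 1 or 2. Ptk2b, which encodes the FAK relative PYK2, rose 3.03-fold to 1543 ± 198 in BrM cells, against 509 ± 69 in parental cells (SD, n = 3 each; limma adjusted p = 0.00162), whereas Ptk2, which encodes FAK itself, averaged 5149 ± 22.4 in BrM cells and 4860.4 ± 545 in parental cells and did not pass (0.629). Fyn, a Src family kinase, rose 6.88-fold to 4999 ± 1209 in BrM cells, against 776 ± 414 in parental cells (limma adjusted p = 0.00349), and Src had a log2 fold change of -0.19 and did not pass (0.367). Akt1, a kinase activated downstream of integrins, rose 2.12-fold and Asap2, an Arf GTPase-activating protein bound by PYK2, rose 5.51-fold (limma adjusted p = 0.00247 and 0.00393). Both lie on chromosome 12, and after centring Akt1 was 1.07-fold higher and did not pass (limma adjusted p = 0.66), while Asap2 was 2.78-fold higher and passed.

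Of 22 tested integrin subunits 3 rose, 6 fell and 13 did not pass, with a median log2 fold change of -0.21. Itgb1, the beta subunit through which most of these adaptors act, was not among those that passed, with 55218 ± 3531 in BrM cells and 50041 ± 4469.9 in parental cells (SD, n = 3 each; limma adjusted p = 0.506). Itga7, a laminin-binding subunit typical of muscle, fell 8.73-fold to 269 ± 41.7 in BrM cells, against 2396 ± 689 in parental cells (limma adjusted p = 0.00046). Itgb3 and Itgb8, among the beta subunits that pair with alpha-v, fell 4.03- and 4.73-fold (limma adjusted p = 0.00997 and 0.00789), and Itga2, a collagen-binding subunit, fell 1.96-fold (limma adjusted p = 0.00906). Itgb8 lies on chromosome 12 and was 9.38-fold lower after centring. Itgb2, Itgb4 and Itgb6, named after their values were seen, were the 3 that rose. Of the other partners of alpha-v, Itgb6 rose 3.04-fold (limma adjusted p = 0.0303) and Itgb5 did not pass (0.121). The count of 9 was 5 without BrM replicate 2 or 3 and 4 without parental replicate 2, and the 3 higher calls were absent in each of these. The shares of genes that passed were 41.7% of the talin and kindlin regulators, 57.1% of the partners, 33.3% of the adaptors, 29.6% of the signalling genes and 40.9% of the integrins, beside 28.1% of all tested genes.

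**Figure D5:**
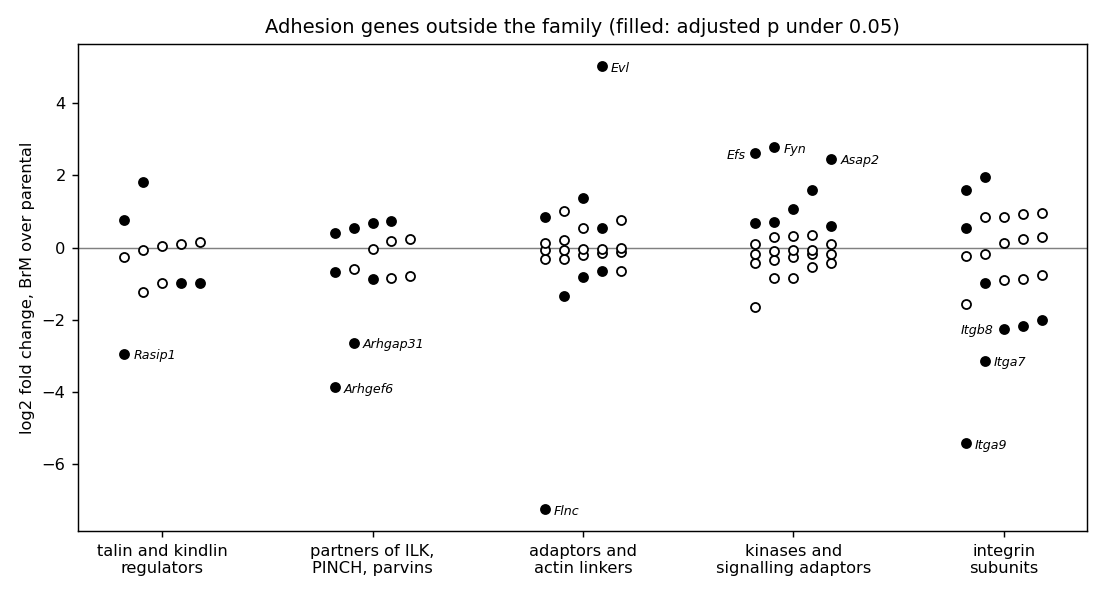
Log2 fold change, BrM over parental, of the tested genes of 5 adhesion lists, each circle a gene and filled where its limma adjusted p is under 0.05; names mark those that passed beyond a log2 fold change of 2.2 in either direction. Evl rises 32.4-fold and Flnc falls 151-fold, while 75 of the 99 genes lie within a log2 fold change of 1 in either direction and 41 within 0.5.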

How the data were processed

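RNA-seq libraries of the mouse line were analysed, 3 of BrM and 3 of parental cells. The authors deposited a signal table of scaled read counts, and the submitters' processing notes name STAR, HTSeq, GRCh38 and GRCm38. How the scaling was done is not given in the sources used here. Dividing each library by its smallest step gave whole reads (tolerance 0.01 read) for 100% of the values in every library, and these are the recovered reads. Per the labels' protocols either TruSeq or NEBNext kits and either DMEM or RPMI media were used, without saying which library had which, so kit and group cannot be told apart. Columns were matched to groups by name, and replicate numbers are those of the columns.

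The test was limma 3.58.1 (R 4.3.3), two-sided and with an intensity trend, on log2(value + 1) of the 13821 genes whose mean reached 10. P-values were adjusted by Benjamini-Hochberg over all of these, with a threshold of 0.05. edgeR 4.0.16 (quasi-likelihood, TMM) and DESeq2 1.42.0 on the recovered reads, other scalings, pseudocounts and filters, array weights, chromosome centring and leaving out each library were alternatives. edgeR called 3753 genes, 3675 of them shared with limma, and DESeq2 5075. The fits were tested on simulated data. Positions and merged exon lengths came from GENCODE M21, which matched 98.2% of symbols. Promoters came from RefSeq.

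The members and lists were chosen with earlier results of these data known. The text names all members, up to 4 called genes with the smallest p-values in each adhesion list, all called neighbours of Parvb and the 5 nearest profiles. Others are said to be named after their values were seen, or are given for comparison, as Vcl, Zyx, Ptk2, Src, Itgb1, the overlapping genes and the cell type markers are.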

Additional observations from a re-analysis of the deposited data

How the results depend on the processing

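Parvb, Fermt2 and Fermt3 kept their direction under every alternative run. Parva and Ilk stayed below 0, but with chromosome centring Parva was at -0.008 and Ilk at -0.12. The log2 fold change of Parvb lay between 6.99 and 8.19, and that of Parvg, which depends on the pseudocount because parental cells had no read, between 2.38 and 7.90. The 4 genes under the threshold became 3 to 5 when 1 library was left out and 3 to 6 otherwise. Parvg did not reach a mean of 50, Fermt3 was lost with the replicate block over numbers 1 and 2 and with BrM replicates 2 and 3 averaged, and Ilk was gained with DESeq2 and, with Parva, with array weights. With a pseudocount of 5 the folds of Rasip1 and Scube1 were 4.56 and 25.8. Genes past the threshold (3881) ranged from 2191 to 6519 when 1 library was left out, the regulators of talin and kindlins from 3 to 6, the partners from 2 to 9, the adaptors from 3 to 10, the signalling genes from 4 to 14, the integrins from 4 to 13 and the neighbours from 10 to 45. With array weights, which gave BrM replicate 1 a weight of 0.0903, 8485 genes passed, with 8 regulators, 13 adaptors, 19 signalling genes (10 higher, 9 lower), 17 integrins and 58 neighbours. With BrM replicates 2 and 3 averaged as 1 sample 2275 genes passed, with 3 regulators, 4 partners, 4 adaptors, 5 integrins and 12 neighbours. DESeq2 gave 14 signalling genes, chromosome centring gave 3 partners, and 10 neighbours on each side gave 58 of 180. Without length correction Parvb held 9.98% of the parvin level in BrM cells and 0.0305% in parental cells. Whether library numbers pair the samples is not known. The deviations of same-numbered libraries correlated at 0.304, -0.088 and 0.326, and those of differently numbered ones at -0.341 to 0.311. Deviations from a mean of 3 libraries are tied to each other, so these values cannot decide it. With a replicate block over numbers 1 and 2, which uses 4 of the libraries, 2029 genes passed, with 2 partners, 5 adaptors, 4 signalling genes and 13 neighbours. The planned term for libraries with and without a number in their title could not be fitted, since columns could not be tied to titles. The causes of these shifts were not tested. Depth limits Parvg, Lims2 and the parental levels of Parvb and Fermt3, each resting on under 100 reads.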
